A study of Arabidopsis thaliana with 9 samples.

Results

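The late-rising genes described here are 138 Arabidopsis thaliana genes, known by locus code alone, whose array signal stayed near its starting level at 2 d of FPX treatment and was at least doubled at 8 d. They were taken from the 5072 probe sets that name 1 gene by its locus code, so they are 2.72% of that pool. Each gene is represented by 1 probe set. They were chosen by the group means of log2(signal + 16): the mean at 2 d had to lie within 0.3 of the mean at 0 d, and the mean at 8 d had to exceed the mean at 0 d by 1 or more. The changes of these genes at 2 d and 8 d are therefore descriptions, and where a count of them passing a threshold is given it is a description too, not evidence.

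The study placed wild-type seedlings of 4 d on 45 µM FPX (fipexide, a compound known to induce callus) and took whole seedlings after 0, 2 and 8 d, with 3 arrays at each time. The 0 d group is seedlings of 4 d with no FPX. The 2 d and 8 d groups carry the same genotype and dose and were also 2 and 8 d older than the 0 d group. No untreated seedlings of those ages, and no auxin and cytokinin arrays, were analysed here, so treatment and age cannot be told apart. The 0 d arrays were processed again from raw data shared with another series, and the processing of that group cannot be told apart from time either. The labels do not say whether the 3 arrays of a time came from separate plates or extractions, so the spread between them may be technical.

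A locus code gives the chromosome of a gene and its order along it, and genes keep only a code while no established symbol has been assigned to them in the annotation used. After transfer to callus-inducing medium, cells of the existing organs, mainly pericycle-like cells beside the vascular tissue, start to divide and form a mass of cells. A gene that is level early and higher late in whole seedlings can reflect more RNA per cell or more cells of one type, and these cannot be told apart in bulk RNA. A change in the RNA of the rest of the seedling enters the same way.

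The arrays had 75th-percentile signals between 1046 and 1103, and replicates of a time correlated at 0.987 to 0.991 across probe sets. The deposited table held 11228 probe sets besides controls. It lacked features that were level at both times: of the 542 locus-code probe sets within 0.1 of 0 d at 2 d, 0 were also within 0.1 of 0 d at 8 d, whereas 53 lay between 0.1 and 0.3 in size at 8 d. Shares of the table are therefore not shares of the genome, and p-values adjusted over it may be too small. Over all tested probe sets the median change was 0.17 at 2 d and 0.36 at 8 d on the log2(signal + 16) scale, so the table as a whole lay above 0 d. The labelled tissue could be checked against few markers: of 42 markers in 10 lists of organs and cell types, 8 were named in the table, and none of the 6 photosynthetic leaf markers was named in it. Of those 8, 2 rose at 8 d against 0 d and 5 fell (limma, Benjamini-Hochberg adjusted p under 0.05). STOMAGEN, a signal that promotes stomata, fell by 3.39. OLEO3, an oleosin of seed oil bodies, rose by 0.86. Those counts were 2 up and 6 down with equal array medians, 3 and 4 with quantile normalization, and 2 and 2 on the hybridization controls. The part of organ or cell type in the late rise was not tested.

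At 8 d the median change of the 138 genes against 0 d was 1.23, a 2.35-fold difference on the log2(signal + 16) scale, which is 0.87 above the median of all probe sets. The change ranged from 1.002 to 4.10. It was 3 or more in 4 genes, between 2 and 3 in 8, between 1.5 and 2 in 27 and between 1 and 1.5 in 99, so most members lay near the lower bound. At 2 d the median change was 0.14, close to the median of all probe sets, with 105 genes above 0 and 33 below. By construction the difference between 8 d and 2 d was also large, with a median of 1.15.

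**Figure D1:**
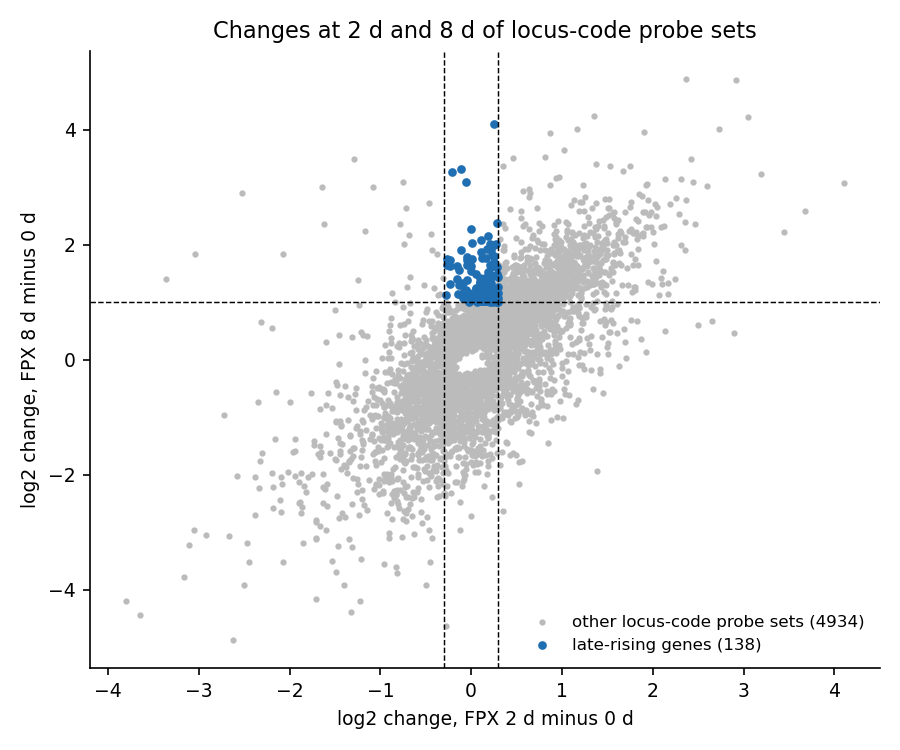
Each point is a locus-code probe set, placed by its mean change at 2 d (x axis) and at 8 d (y axis) against 0 d, in log2(signal + 16) units with 3 arrays per time. The blue points are the 138 late-rising genes, bounded by the dashed lines at -0.3, 0.3 and 1, and most lie close above the lower bound. The small gap at the centre shows that no locus-code probe set of the table lay near 0 at both times.

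All 138 genes passed the adjusted p of 0.05 in the fit of 8 d against 0 d, in which 54.9% of all probe sets were called up and 36.1% down. Likewise all 138 passed at 8 d against 2 d, where the table's share called up was 43.9%. In each of the 138, every 8 d array lay above every 0 d and 2 d array, a pattern found in 40.4% of the table. These counts follow from the bounds and support nothing further. The smallest distance between the lowest 8 d array and the highest earlier array was 0.41, and the median distance was 0.85. At 2 d, 13 of the 138 were called up, where the table's share was 44.6%, and 1 was called down, where the share was 28.1%. The bound of 0.3 limits this count, and 9 members were called, in place of 14, without the first 2 d array. The direction of these calls turned with the scaling: 0 were up and 15 down with equal array medians, 4 up and 20 down with quantile normalization, and 46 up and 0 down on the hybridization controls. In 108 genes the arrays at 0 d and 2 d overlapped, in 27 all 2 d arrays were above all 0 d arrays, and in 3 they were all below. The bound at 2 d favours such overlap, and no share over the table is given beside these 3 counts, so they only describe the members.

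The largest late rise was that of AT5G60630. Its signals were 121, 129 and 154 at 0 d, 126, 208 and 161 at 2 d, and 2661, 2652 and 2365 at 8 d. The 0 d and 2 d arrays overlapped, and the 8 d mean was 19.0 times the 0 d mean of the signal, a change of 4.10 on the log2(signal + 16) scale. AT5G60520, another gene of the same arm, read 253, 217 and 245 at 0 d, 214, 240 and 229 at 2 d, and 2169, 2132 and 2115 at 8 d. Its arrays were tight at every time, and its change at 8 d was 3.08. The other 2 of the 4 largest changes were also in genes of chromosome 5. AT5G24580 read 104, 95.2 and 129 at 0 d, 116, 97.5 and 85.4 at 2 d, and 1151, 1294 and 1250 at 8 d, a change of 3.32. AT5G14020 read 112, 199 and 120 at 0 d, 101, 138 and 116 at 2 d, and 1547, 1582 and 1330 at 8 d, a change of 3.27. In AT5G14020 the second 0 d array stood above the other two, and still lay far below every 8 d array. These 4 genes were the only members with a change of 3 or more.

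AT2G43610 was the brightest of the 138 genes at 8 d. It read 1697, 1619 and 1658 at 0 d, 1989, 1877 and 2235 at 2 d, and 8054, 9789 and 8285 at 8 d, a change of 2.38. All of its 2 d arrays were above its 0 d arrays, a difference of 0.29 that is just inside the bound. AT5G26731 read 113, 91.8 and 134 at 0 d, 123, 109 and 105 at 2 d, and 679, 563 and 564 at 8 d, a change of 2.27 with almost no difference at 2 d. AT1G08350 read 324, 256 and 410 at 0 d, 383, 362 and 368 at 2 d, and 1776, 1278 and 1480 at 8 d, a change of 2.15. The spread at 0 d was wide enough in this gene for the 2 d arrays to fall inside it.

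In AT1G11670 the signals were 438, 472 and 436 at 0 d, 440, 522 and 488 at 2 d, and 1926, 2082 and 1866 at 8 d, a change of 2.09. The changes of AT5G23170, AT2G23360, AT1G12160 and AT4G31020 were between 2.00 and 2.04. AT2G23360 had the closest 8 d arrays of these, at 519, 523 and 524, while its 0 d arrays were 129, 103 and 120 and its 2 d arrays 143, 159 and 133. The remaining genes of the 20 largest changes were AT2G32430, AT4G13990, AT1G73160, AT3G26770, AT1G20550, AT2G20515, AT4G17940 and AT1G26665, with changes of 1.77 to 1.93. AT1G73160 and AT1G20550 were dim, with mean 0 d signals of 62.8 and 61.5, and AT4G17940 was bright, at 859, 891 and 866 at 0 d, 830, 867 and 838 at 2 d, and 2885, 3294 and 3008 at 8 d. The 20 genes thus covered a wide range of starting levels.

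**Figure D2:**
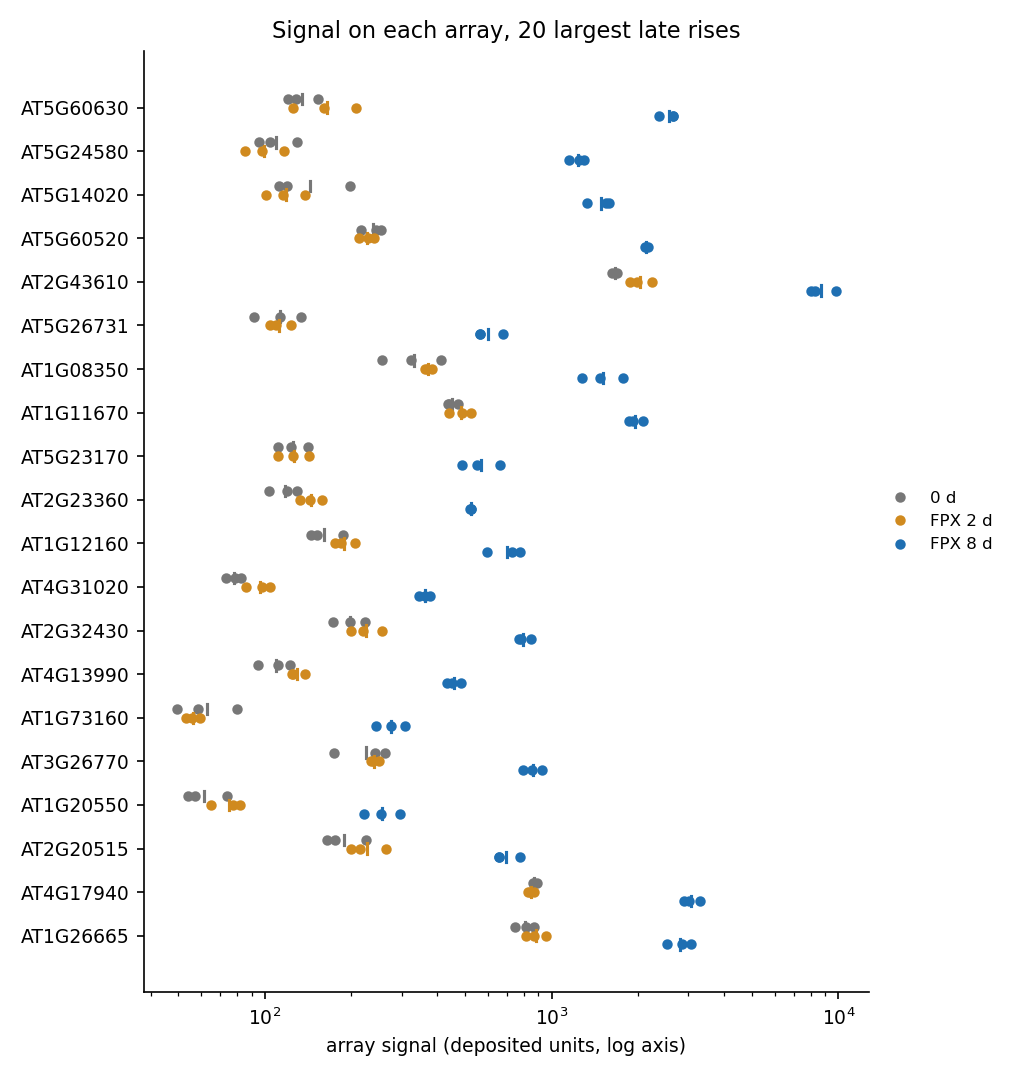
Signals on single arrays (x axis, log scale, deposited units) of the 20 genes with the largest change at 8 d, in order of that change from top to bottom. Points are arrays, 3 per time, and short bars are means. The 0 d and 2 d points lie together, and the 8 d points lie apart to the right in all 20 genes, which the bounds required of their means.

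The late-rising genes started low. Their median of mean signals was 187 at 0 d, 202 at 2 d and 540 at 8 d, against 444, 506 and 533 for all probe sets at the same times. At 0 d, 107 of the 138 lay below the table's median, against 68 at 8 d. The brightest quartile of the table held 6 of them at 0 d and 33 at 8 d. The bound at 8 d favours such shifts in rank. Signals of different probe sets are not on one scale of abundance, so these ranks describe array signal only. Among the 138, Spearman's rho of starting level and size of the rise was -0.096 (genes on shared arrays). The rise contains the 0 d mean and was cut at 1, so this value is a description only. AT3G44240 was the dimmest at 0 d, with 19.2, 32.6 and 35.5 at 0 d, 21.7, 26.2 and 45.8 at 2 d, and 113, 135 and 84.4 at 8 d. AT3G46020 was also dim, with 41.5, 45.0 and 55.0 at 0 d, 39.9, 62.4 and 58.3 at 2 d, and 146, 127 and 108 at 8 d. The brightest after AT2G43610 were AT1G55840, with changes of 0.15 at 2 d and 1.02 at 8 d, and AT4G09830, with 0.17 and 1.30.

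**Figure D3:**
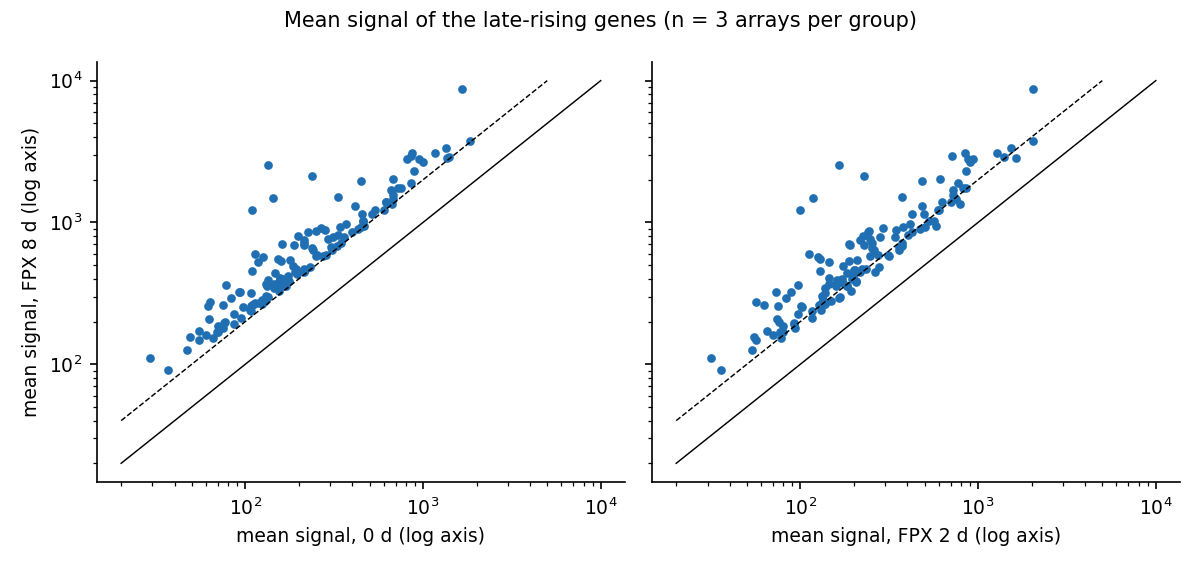
Mean signal at 8 d (y axis) against the mean at 0 d (left, x axis) and at 2 d (right, x axis) for the 138 late-rising genes, on log scales, with 3 arrays per mean. The solid line marks equal signal and the dashed line a doubling, and 1 gene, AT2G43610, stands above the others at the bright end with an 8 d mean of 8710.

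The genes varied more between arrays of a time than the table did at the early times. The median SD over 3 arrays, in log2 units, was 0.162 at 0 d, 0.152 at 2 d and 0.122 at 8 d in the 138 genes, against 0.120, 0.102 and 0.113 in all probe sets. Other rising locus-code genes shared this at 0 d. The median SD there was 0.171 in 228 genes that rose by 2 d and held. It was 0.157 in 355 genes that rose by 2 d and further by 8 d. The 138 genes also had lower median signals than the table at 0 d and 2 d. The part of signal level in their spread was not tested. The largest SD at 8 d was that of AT5G14390, which read 343, 325 and 323 at 0 d, 428, 430 and 357 at 2 d, and 1072, 628 and 738 at 8 d. Its first 8 d array stood above the other two. AT5G49210, with 930, 1304 and 827 at 8 d, and AT4G16260, with 2140, 1565 and 2396 at 8 d, followed. Their 0 d arrays were 474, 463 and 435, and 668, 601 and 755, all below the 8 d arrays of the same gene.

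AT3G10040 was the only one of the 138 with another name in the gene table, HRA1 (HYPOXIA RESPONSE ATTENUATOR1), a trihelix transcription factor that restrains the response to low oxygen in Arabidopsis. Its signals were 106, 70.7 and 98.9 at 0 d, 80.2, 60.9 and 77.3 at 2 d, and 253, 370 and 347 at 8 d. The 0 d and 2 d arrays overlapped, the 2 d mean was 0.27 lower, and the change at 8 d was 1.65. AT5G09960 was the gene called down at 2 d with the arrays as deposited. It read 890, 824 and 861 at 0 d, 686, 751 and 701 at 2 d, and 3026, 2904 and 2892 at 8 d, so all of its 2 d arrays lay below its 0 d arrays before the change of 1.76 at 8 d. No product or family is given here for the other 137 genes, since the tables used pair their codes with no description.

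Near the bounds the division is fine. Just inside the bound at 8 d were AT4G24290, AT4G35940 and AT1G80280, with changes of 1.002 to 1.003. Just outside were AT3G16700 and AT1G32860, both at 0.9999, and AT1G62010 at 0.998. At the upper bound of 2 d, AT4G24290, AT1G56610 and AT2G26210 lay inside with changes of 0.29 to 0.30, and AT5G65240, AT1G06010 and AT5G12970 lay outside at 0.30. At the lower bound AT4G29270, AT3G10040 and AT5G09960 were inside at -0.27 to -0.26, and AT1G62840, AT1G14240 and AT3G48185 were outside at -0.31 to -0.37. The nearest genes on either side of a bound differed by less than the members' median SD between arrays, and 37 of the 138 changes at 8 d lay between 1 and 1.1.

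Which genes are called late-rising depended on how the arrays were scaled. Setting the array medians equal kept 53 of the 138, quantile normalization kept 57 and scaling on the hybridization controls kept 98, and 28 were kept by all 3 scalings. The median change of all probe sets at 8 d was 0.11, 0.17 and 0.60 under those scalings, so the fixed bounds cut at different places. All 138 changes at 8 d stayed above 0 in each of the 3, the lowest being 0.64 under quantile normalization. At 2 d the sign of the members' median turned: it was -0.04 with equal medians and -0.09 with quantile normalization.

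Across all 15 settings that changed the values or left out an array or dim probe sets, 15 genes met both bounds every time; they are named here because of this result. They were AT1G11670, AT2G32430, AT3G26770, AT4G17940, AT1G26665, AT5G05880, AT3G19100, AT3G01860, AT4G27900, AT1G15230, AT5G47060, AT3G61100, AT1G76660, AT1G59960 and AT4G09830. Their changes were -0.04 to 0.20 at 2 d and 1.30 to 2.09 at 8 d. AT3G19100 read 1072, 987 and 795 at 0 d, 976, 875 and 975 at 2 d, and 2557, 2908 and 2941 at 8 d. AT5G47060 read 789, 736 and 1136 at 0 d, 849, 1002 and 710 at 2 d, and 2308, 2276 and 2303 at 8 d. In both the arrays of 0 d and 2 d overlapped, and all 8 d arrays were higher. Of the 20 largest changes, 5 were among these 15. Of those 20, AT5G26731, AT5G23170 and AT1G73160 missed only the setting without dim probe sets, which left them out by brightness. The 4 genes with a change of 3 or more were not among the 15, since each left the band at 2 d in at least 1 setting.

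**Figure D4:**
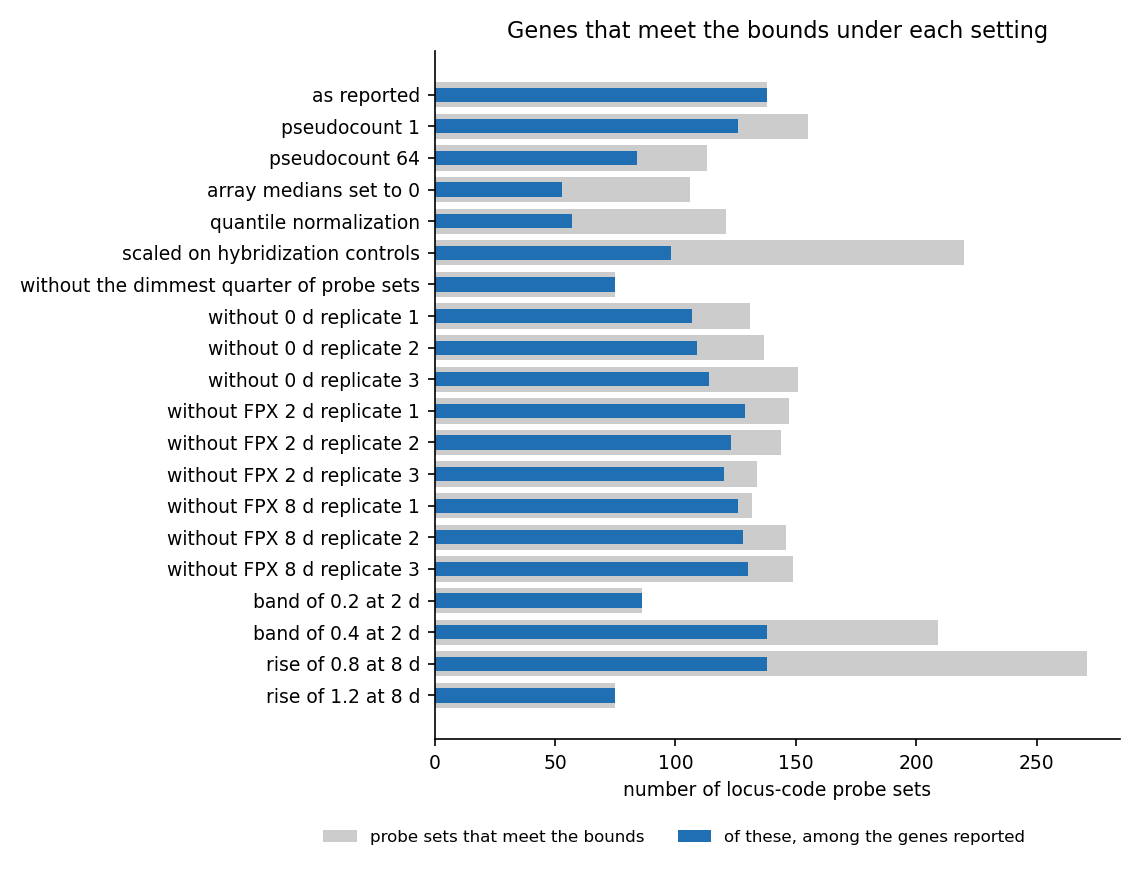
Number of locus-code probe sets (x axis) that met both bounds under each setting. Grey bars are all that met them and blue bars those among the 138 genes reported, so the gap between the bars is genes that enter. The 138 fall to 53 shared genes with equal array medians, and 220 meet the bounds with scaling on hybridization controls, 98 of them shared.

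By position, 34 of the 138 genes were on chromosome 1, 14 on chromosome 2, 28 on chromosome 3, 19 on chromosome 4 and 43 on chromosome 5. Chromosome 5 held 31.2% of them and 24.4% of all locus-code probe sets, and chromosome 2 held 10.1% and 14.5%, differences given without a test. Of the 138, 137 were protein-coding and AT1G14090, described for its type with its values known, was a transcribed pseudogene. Signals of AT1G14090 were 79.0, 36.4 and 48.2 at 0 d, 58.2, 90.1 and 46.5 at 2 d, and 171, 173 and 174 at 8 d. The early arrays of this pseudogene scattered widely, and its 8 d arrays were nearly equal. In the RefSeq annotation 42 of the 138 genes, 30.4%, overlapped another gene, against 33.9% of the locus-code genes that could be placed. Probes of overlapping genes can share template, and the labels do not say how far these do.

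No late-rising gene adjoined another. Of the 274 adjoining protein-coding positions, 71 were covered by a named probe set, beside 60 of the 138 genes. At 8 d against 0 d, 47 of these 71 rose and 20 fell (limma, adjusted p under 0.05), or 66.2% and 28.2%. The table's shares were 54.9% and 36.1%, a difference given without a test. The median change of the 71 was 0.49, and 0 of them met both bounds. Among the 14 that overlapped a late-rising gene, 7 rose and 6 fell (50% and 42.9%), with a median change of -0.00. Among the 57 that did not overlap, 40 rose and 14 fell (70.2% and 24.6%), with a median of 0.62. The neighbours thus moved in both directions.

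The neighbour with the largest change at 8 d was AT5G60530, beside AT5G60520, named with the next examples because of its change. It rose by 3.52 at 8 d against 0 d (adjusted p = 1.6e-09) and by 0.47 at 2 d (adjusted p = 0.011), so it was above the band at 2 d. With equal array medians the 2 d change was 0.29 (adjusted p = 0.083) and with quantile normalization 0.26 (adjusted p = 0.13), both inside the band. AT1G28070, beside AT1G28080, rose by 2.10 at 8 d (adjusted p = 2.3e-09), and AT3G07750, beside AT3G07760, rose by 1.97 (adjusted p = 7.1e-09). PPR596, which overlaps AT1G80280, rose by 1.70 (adjusted p = 5.0e-09). In contrast AT4G23820, which overlaps AT4G23840, fell by 2.18 at 8 d (adjusted p = 1.5e-08). SBT4.12, a subtilase-type protease near AT5G59070, fell by 1.98 (adjusted p = 1.6e-07). Beside AT5G05880, one of the 15 genes kept throughout, UGT76C1, a cytokinin N-glucosyltransferase, fell by 0.35 (adjusted p = 0.009) while AT5G05880 had a change of 1.75. On the other side of AT5G05880, AT5G05890 rose by 0.42 (adjusted p = 0.00055). On the hybridization controls the change of UGT76C1 was -0.11 (adjusted p = 0.40). CML38, a calmodulin-like protein next to AT1G76660, fell by 1.34 (adjusted p = 6.4e-05). Several of these neighbours had already moved at 2 d against 0 d, so their timing was not that of the late-rising genes. With the arrays as deposited, the 2 d change was 1.58 for PPR596, 1.12 for AT3G07750 and 0.31 for AT1G28070. It was -1.02 for AT4G23820, -1.86 for SBT4.12, -2.16 for CML38, -0.67 for AT5G05890 and 0.08 for UGT76C1.

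A second probe set was available for 2 of the 138 genes, and neither second probe set met both bounds. For AT5G22700 the other probe set was named by the platform annotation alone, without a match to RefSeq by identifier. It read 187, 219 and 273 at 0 d, 411, 382 and 354 at 2 d, and 748, 633 and 675 at 8 d. It was already higher at 2 d than at 0 d on every array, by 0.73 (adjusted p = 0.00034), and by 1.55 at 8 d (adjusted p = 3.4e-07). The probe set that met the bounds read 159, 175 and 180.5 at 0 d, 192, 241 and 184 at 2 d, and 387, 396 and 354 at 8 d, with changes of 0.24 and 1.08. For AT3G53670 the other probe set read 710, 693 and 604 at 0 d, 584, 569 and 551 at 2 d, and 977, 880 and 977 at 8 d. It fell by 0.23 at 2 d (adjusted p = 0.038) and rose by 0.49 at 8 d (adjusted p = 0.00027). The call at 2 d was lost without any one of 5 arrays, the first or second of 0 d or any of 2 d (changes of -0.25 to -0.18), and on the hybridization controls (-0.12). In that gene the member probe set was dimmer and changed by 0.12 and 1.05. Both second probe sets were higher at 8 d than at 0 d, with sizes and early changes that differed from the first.

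On chromosome 2, AT2G07741, AT2G07707 and AT2G07722, grouped by position with their values known, lie in the stretch beside the centromere that carries a copy of much of the mitochondrial genome. Their probe sets have the _s_at suffix, which Affymetrix gives to probe sets that match several transcripts, so signal from the nuclear copy and from mitochondria cannot be told apart. AT2G07741 read 108, 88.3 and 83.1 at 0 d, 88.8, 83.1 and 94.8 at 2 d, and 350, 298 and 323 at 8 d, a change of 1.64. AT2G07707 read 233, 250 and 160 at 0 d, 187, 257 and 167 at 2 d, and 535, 433 and 422 at 8 d, a change of 1.07. AT2G07722 was dim, with 23.6, 45.6 and 41.3 at 0 d, 43.0, 39.3 and 24.4 at 2 d, and 82.7, 110 and 80.6 at 8 d, a change of 1.03. In each the early arrays overlapped, and all 8 d arrays were higher.

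The stretch held 2 more probe sets of the pool, both also with the _s_at suffix. AT2G07751 rose by 0.85 at 8 d against 0 d (adjusted p = 4.3e-05) and AT2G07708 by 0.86 (adjusted p = 1.3e-05), short of the bound. Mitochondrial genes named in the table, chosen after their values were seen, were nad1, nad4 and nad9 (subunits of complex I), cox1 (a subunit of cytochrome c oxidase), and ccb382 and ccb452 (cytochrome c maturation). At 8 d against 0 d, 6 of these 6 rose, with a median change of 0.84, against 54.9% of the table. Under each of the 3 scalings 6 of 6 also rose. Without the dimmest quartile of probe sets, 2 of the 6 were left to test, and both rose. The changes of the 6 at 8 d were 2.08 for ccb452, 1.41 for nad1, 0.86 for nad4, 0.81 for nad9, 0.72 for cox1 and 0.64 for ccb382. At 2 d against 0 d none of the 6 rose and cox1 fell by 0.36 (limma, adjusted p = 0.034). That call was lost without the second or the third 0 d array, without the first or the third 2 d array (changes of -0.36 to -0.23), and on the hybridization controls (-0.27). Of the 6, ccb452 and nad1 met both bounds. The probe set of ccb452 also has the _s_at suffix, so the source of its signal cannot be told apart either.

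**Figure D5:**
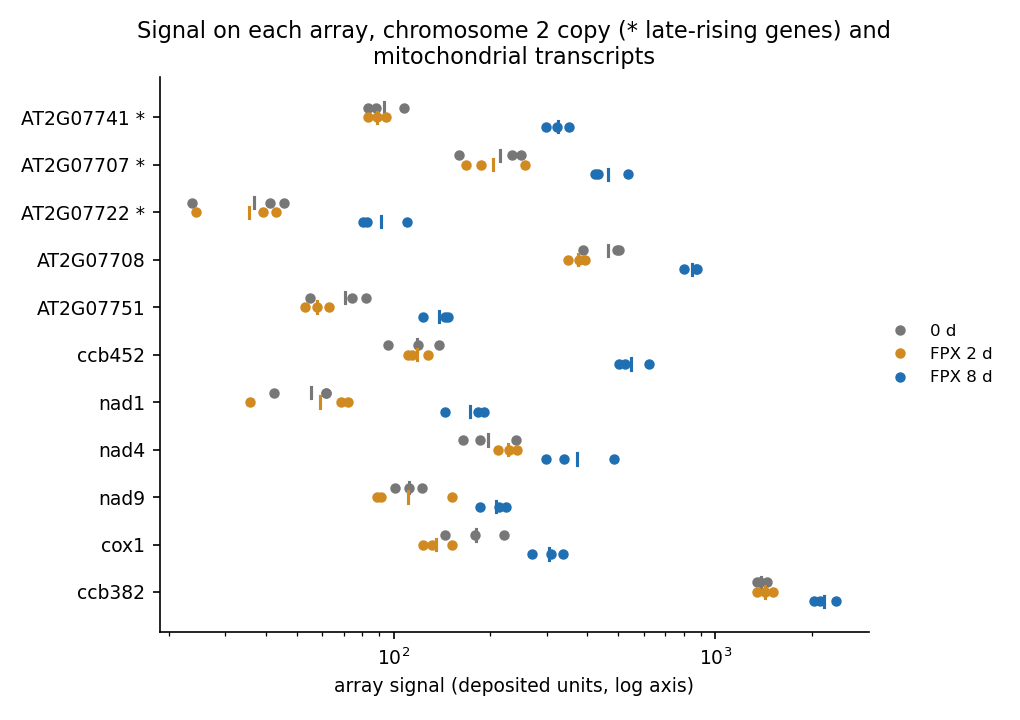
Signals on single arrays (x axis, log scale, deposited units) of 5 probe sets of the mitochondrial copy on chromosome 2, of which the 3 starred are late-rising genes, and of 6 mitochondrial genes. Points are arrays, 3 per time, and short bars are means. In all 11 the 8 d arrays lie to the right of the 0 d arrays.

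The same bounds were met by 270 probe sets of the whole table, 2.40% of it. Of genes with an established symbol, 16 of 909 met them, 1.76%, against 2.72% of the locus-code pool, a difference given without a test. Besides ccb452 and nad1 they include GSTU25, a glutathione transferase, which read 886, 919 and 644 at 0 d, 721, 708 and 840 at 2 d, and 3316, 2849 and 3547 at 8 d. SPT (SPATULA), a bHLH transcription factor of carpel growth and germination, read 335, 277 and 336 at 0 d, 265, 294 and 292 at 2 d, and 1385, 1251 and 1229 at 8 d. Both changed by 1.98 at 8 d and had overlapping arrays at 0 d and 2 d. RTE1, a negative regulator of ethylene response that acts with the receptor ETR1, changed by 1.51. SPY (SPINDLY), a repressor of gibberellin response, changed by 1.16. PPDK, pyruvate orthophosphate dikinase, changed by 1.35, and URE, urease, by 1.34. The others were CXE20, scpl35, ENGase85B, YLS5, UGT85A2, Fes1C, U2AF35B and DER2.2, with changes of 1.14 to 1.81.

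Set beside other rising locus-code genes, the late group had similar starting signals. The median of mean signals at 0 d was 187 in the 138 genes, 168 in 228 genes that rose by 2 d and held, and 181 in 355 genes that rose by 2 d and further by 8 d, against 372 in all locus-code probe sets. At 8 d these medians were 540, 544, 727 and 472. The median change at 8 d was smaller in the late group, at 1.23, than in the other two, at 1.48 and 1.77. The groups are cut from the same changes and the same 0 d arrays, so these values describe them and test nothing. With the arrays as deposited, falls with the same timing were more numerous: 195 locus-code probe sets stayed within 0.3 at 2 d and fell by 1 or more at 8 d. Such falls were not counted under the other scalings, where the number of late rises differed.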

How the data were processed

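Whole-seedling RNA of 9 samples, 3 per time, was hybridised to Affymetrix ATH1 arrays. The authors deposited array intensity made with MAS5, per the submitters' processing notes, which give no version; the intensity values are linear, and no source used here gives the array software's scaling. Labels name both Cy3 and biotinylated cRNA. Probe sets were named by the platform annotation: of 11228 tested, 5981 named 1 gene, 909 of these by a symbol and 5072 by a locus code, 222 named several and 5025 were unlisted; 5962 of the 5981 were matched by identifier to RefSeq (assembly TAIR10.1), used for names, biotypes and neighbours only.

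Values were log2(signal + 16). Group means over the 9 arrays were fitted with limma 3.58.1 (R 4.3.3), residual degrees of freedom 6. The p-values were adjusted by Benjamini-Hochberg over all 11228 probe sets. That adjustment covers a table lacking features level at both times, so adjusted p-values may be too small. The script was tested on simulated data. Arrays have no counting depth; their number limits the precision. The members, the lists and the tests were chosen with earlier results of these data known. Genes were named by rule: the 20 largest changes at 8 d, the 3 on each side of each bound, the 3 brightest at 8 d and 3 dimmest at 0 d, the 3 most variable at 8 d, genes with a second probe set or adjoining member; other names were chosen after their values were seen and are marked so, or are those of neighbours, markers and symbol genes. Other pseudocounts, scalings, a filter on dim probe sets, other bounds, the replicate number as a block and leaving out each array were tried. A count of product classes and a search of promoters for motifs were planned and not run, since no descriptions or promoter sequences were used here. Scripts used Python 3.11.15, pandas 2.3.3, NumPy 2.4.6, SciPy 1.17.1 and matplotlib 3.10.9.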

Additional observations from a re-analysis of the deposited data

Results flagged for a closer look

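Each of the following probe sets is no late-rising gene itself but shares a gene, a border or the mitochondrial copy with one. They stand here because their 8 d and 2 d effects against the common 0 d arrays differed, as tested by 8 d minus 2 d in limma with Benjamini-Hochberg adjustment. The second probe set of AT5G22700 differed by 0.82 (adjusted p = 0.00013) and that of AT3G53670 by 0.72 (adjusted p = 2.6e-05). Among neighbours, AT5G60530 differed by 3.05 (adjusted p = 1.7e-08), AT1G28070 by 1.78 (adjusted p = 2.7e-08) and AT3G07750 by 0.84 (adjusted p = 1.5e-05), and AT4G23820 by -1.16 (adjusted p = 6.1e-06). In the mitochondrial copy, AT2G07751 differed by 1.06 (adjusted p = 1.4e-05) and AT2G07708 by 1.15 (adjusted p = 2.6e-06). In this comparison 43.9% of the table was called up, and 3606 of its 11228 probe sets were called down. The neighbours were taken by the size of their 8 d change on the same arrays. Their small p-values therefore follow in part from that choice. Each array was left out in turn for the counts and for changes against 0 d. Groups of 3 arrays are still too small to tell an outlying array from ordinary spread.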

How the results depend on the processing

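The number of genes that met both bounds was 138. It was 220 with scaling on the hybridization controls, 75 without the dimmest quartile of probe sets, 86 and 209 with bands of 0.2 and 0.4 at 2 d, and 271 and 75 with rises of 0.8 and 1.2 at 8 d; it was 155 and 113 with pseudocounts of 1 and 64 and 131 to 151 when single arrays were left out. The members' median change at 8 d, 1.23, was 1.33 and 1.05 with pseudocounts of 1 and 64, 0.98 with equal medians, 1.03 with quantile normalization, 1.46 on the hybridization controls, 1.26 without dim probe sets and 1.19 to 1.28 with single arrays left out. At 2 d the median of 0.14 reversed to -0.035 with equal medians and -0.085 with quantile normalization, and was 0.24 on the hybridization controls. Of the members, 14 were called at 2 d (13 up and 1 down), 15 with equal medians, all down, 24 with quantile normalization (4 up and 20 down), 46 on the hybridization controls, all up, and 9 to 18 with single arrays left out. Without dim probe sets, 75 members were left to be called at 8 d against 0 d and against 2 d, and 31 neighbours, in place of 47, rose, since fewer were tested. The cause of the other differences was not tested. Calls over the table at 2 d were 5005 up and 3155 down, against 3542 and 4116 with equal medians, 3694 and 3542 with quantile normalization and 5606 and 2407 on the hybridization controls. At 8 d they were 6159 and 4058, against 4934 and 4609, 5222 and 4244, and 6630 and 3165 under the same settings. Of 966 values of the 62 named results under the 16 refits, 952 kept their direction and side of the threshold, a count that the bounds fix for most members. The other 14 kept their direction and missed the threshold: AT5G60530 at 2 d, UGT76C1 at 8 d, and the second probe set of AT3G53670 and cox1 at 2 d.

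The labels do not say whether replicate numbers pair the arrays. Deviations of same-numbered arrays correlated at -0.09 to 0.11, with 1 of 9 pairs over 0.1. With 3 arrays per time these values cannot settle whether the arrays were paired. With the replicate number as a block, 8115, 10191 and 8507 probe sets were called at 2 d and at 8 d, both set against 0 d, and at 8 d set against 2 d, in place of 8160, 10217 and 8534, and the members' counts were the same. Product classes and promoter motifs were not run. The 3 arrays per time limit precision, and the median SD of the members exceeded that of the table at each time.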
